A study of Macaca mulatta with 24 samples.

Results

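Gene expression in the colon of 4 rhesus macaques killed 4 days after a total-body dose of 7.4 Gy was compared with that of 4 unirradiated animals. The 8 arrays were chosen by their labelled dose and day, out of 24 in the series. Total-body irradiation (TBI) exposes the whole animal to ionising radiation, here in 1 uniform exposure to cobalt-60 gamma rays. The animals were adult male rhesus macaques. The control animals were sham-irradiated and labelled day 4, and the same 4 controls served every dose and day of the series. Each array held RNA from a short length of whole colon of 1 animal, so mucosa, muscle and nerve were measured together. Expression was read on 1-colour Agilent rhesus arrays. Values below are log2 signals minus the 75th percentile of the same array, called the scaled log2 level, and differences between them are log2 changes. A gene was called higher or lower when limma's adjusted p was below 0.05 and the change was 2-fold or more.

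The colon is lined by a single layer of epithelium that is renewed from stem cells at the base of the crypts. Mature absorptive cells at the surface take up salt, water and the butyrate made by bacteria, and mucus cells, hormone cells and tuft cells lie among them. Ionising radiation breaks DNA, activates the transcription factor p53 and stops or kills dividing crypt cells, while the mature cells above continue to be shed. Loss of the lining lets bacterial products reach the wall, where epithelium, stroma and macrophages release chemokines and acute-phase proteins.

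The share of probes well above background ranged from 70.3% to 82.6% on the 8 arrays, and their 75th percentile signal from 551 to 964 intensity units. The controls lay in array position 1 of slides 1 to 4 and the irradiated samples in position 2 of slides 3 to 6. Position was therefore separated from radiation only through the 6.7 Gy animals of day 4, 2 of which lay in each position. The 4 irradiated arrays and 2 of the controls were scanned on day 2 of scanning and the other 2 controls on day 1. The 6.7 Gy day 4 arrays in position 1 were scanned on day 2 and those in position 2 on day 1. Position and scanning day thus changed together in these animals, and a block for position alone cannot tell them apart. The labelled tissue was borne out by its markers, since AQP8, SLC26A3, CA1 and GUCA2A were well above background on 4 of 4 control arrays.

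Of 35604 probes tested, 2679 were called (7.52%), 1305 higher (3.67%) and 1374 lower (3.86%). Among 12861 named genes, each represented by its brightest probe, 1113 were called (8.65%), 576 higher (4.48%) and 537 lower (4.18%). The median log2 change over all genes was -0.02. The values of both groups did not overlap for 8828 of the 35604 probes (24.8%). The split of calls depended on the scaling: 48.7% of called probes were higher on the 75th percentile scale and 78.2% when the arrays were scaled to their spiked-in controls, which moved the median of all genes to 0.26. In this bulk tissue, fewer cells of a type and less RNA per cell cannot be told apart. When only the arrays of scanning day 2 were fitted, 2331 probes were called, and when array position was a block, 3096. With position and scanning day together as blocks, 669 probes were called.

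**Figure D1:**
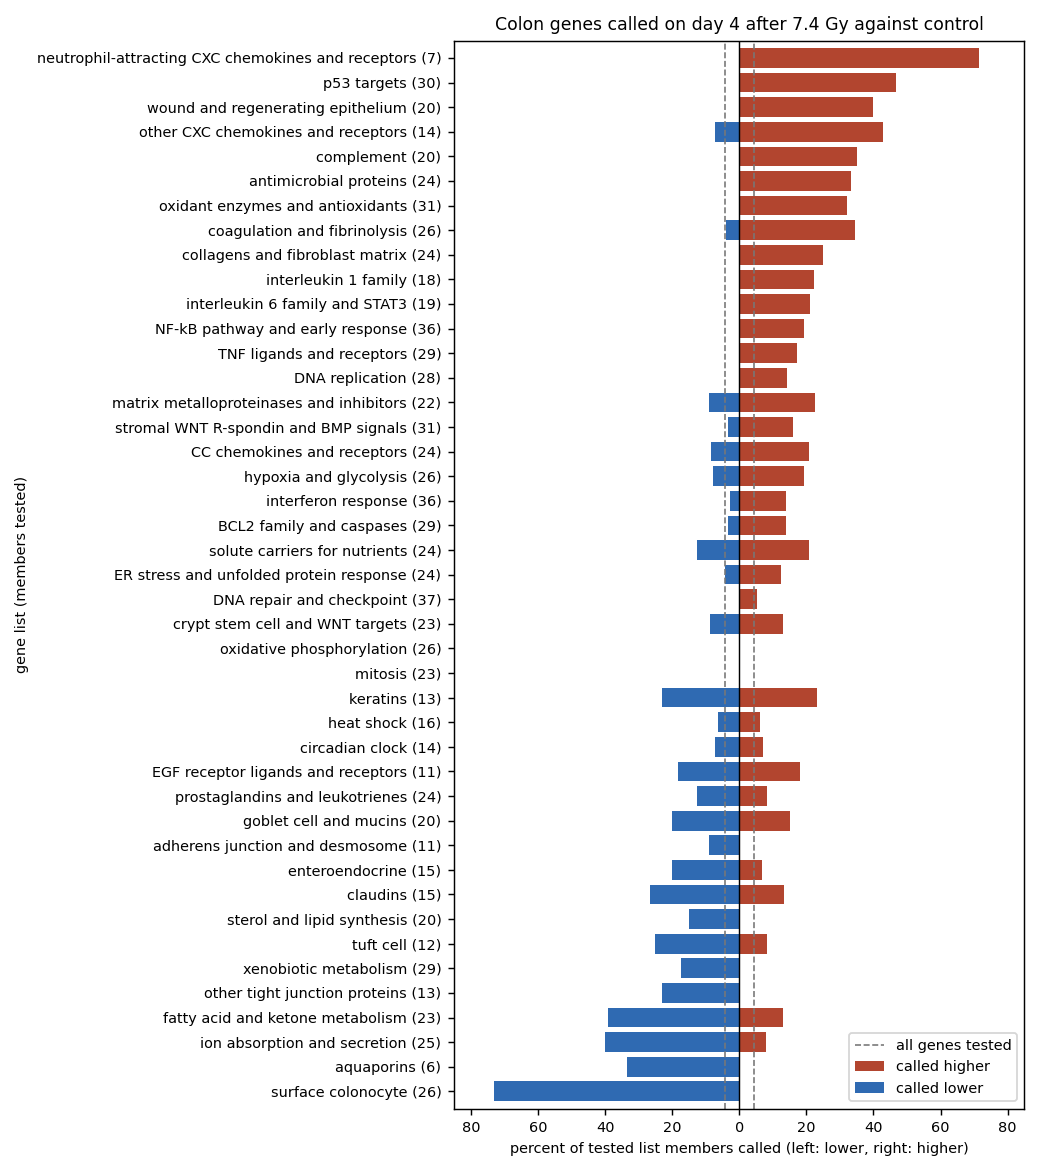
Percent of the tested members of each gene list called higher (red, right) or lower (blue, left) on day 4 after 7.4 Gy against control, with the number of tested members in brackets. Dashed lines mark the share over all genes tested, 4.48% higher and 4.18% lower. The neutrophil-attracting chemokines lie at the top with 5 of 7 members higher and the surface colonocyte genes at the bottom with 19 of 26 lower.

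Genes of mature surface colonocytes were lower on day 4. Of 26 tested members of the list, 19 were called lower and 0 higher, against 4.18% and 4.48% over all genes, and their median log2 change was -2.02 against -0.02 for all genes. CA1, a carbonic anhydrase of surface cells, had scaled log2 levels of 1.05, 0.67, 1.32 and 0.69 in the controls and -7.27, -4.00, -7.27 and -7.59 after irradiation. It was well above background on 4 control arrays and on 1 irradiated array, that of replicate 2, and the groups were far apart. CA1 fell by 7.46 on the log2 scale (SE 0.96, 176-fold, adjusted p = 4.73e-05), the largest fall among the named genes. AQP8, a water channel of surface cells, lay at 7.46, 7.03, 7.82 and 8.35 in the controls and at 1.81, 6.58, 1.33 and 3.51 after 7.4 Gy. Irradiated replicate 2 lay just under the lowest control and the other 3 lay far below. AQP8 was 20.5-fold lower (adjusted p = 0.00155). SLC26A3, which exchanges chloride for bicarbonate, lay at 4.93, 3.75, 3.91 and 4.37 in the controls and at -1.94, 2.59, -1.77 and 0.78 after irradiation, again with replicates 1 and 3 lowest. It was 20-fold lower (adjusted p = 0.000618).

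Guanylin and uroguanylin, the peptides that activate guanylate cyclase C on the epithelium, fell together. GUCA2A, which encodes guanylin, was 11.1-fold lower (adjusted p = 0.000916) and GUCA2B, which encodes uroguanylin, 30.5-fold lower (adjusted p = 0.00048). In both genes the irradiated samples split into a lower pair, replicates 1 and 3, and a higher pair, replicates 2 and 4. GUCA2B levels were -0.01, 3.37, -0.52 and 3.47 after irradiation and 6.23 to 6.73 in the controls. PDZD3, a scaffold protein that binds guanylate cyclase C, was 14.6-fold lower (adjusted p = 8.99e-05). CHP2, a partner of sodium/proton exchangers, was 87.1-fold lower (adjusted p = 3.96e-05), with irradiated levels that ranged from -5.90 to -0.82 and control levels from 2.78 to 3.14. PCK1, an enzyme of glucose synthesis, was 53-fold lower and TMIGD1, an adhesion protein of mature epithelium, 32-fold lower (adjusted p = 0.000497 and 0.00273). CA2, another carbonic anhydrase, was 6.46-fold lower (adjusted p = 0.000907). With array position as a block 11 members of the surface list were called lower, without CA1, AQP8, SLC26A3, GUCA2A, GUCA2B and TMIGD1, and the median log2 change was -2.28. With scanning day as a further block, 2 members were called.

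**Figure D2:**
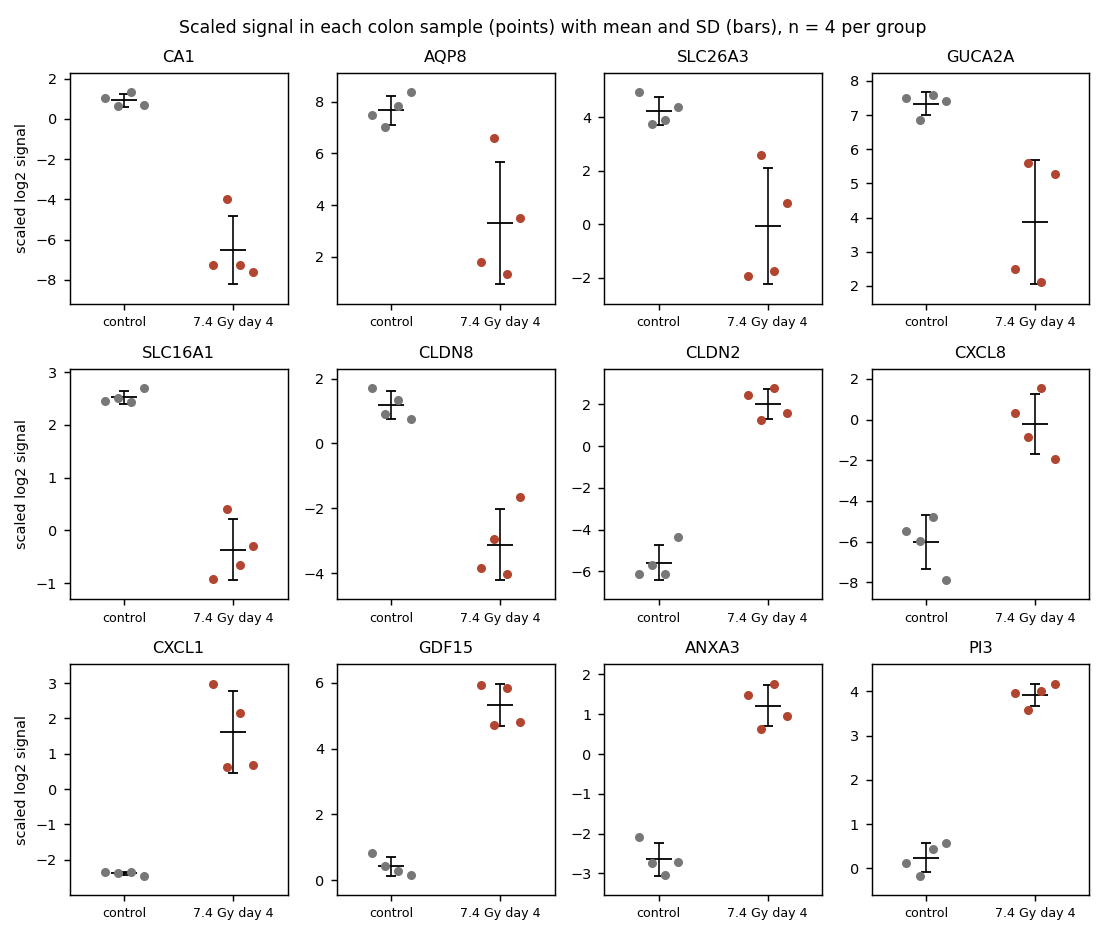
Scaled log2 signal of 12 genes in each of the 4 control (grey) and 4 irradiated (red) samples, replicates 1 to 4 from left to right, with the mean and SD as bars. The groups do not overlap in any of the 12 panels, against 27% of all genes tested. This was fixed in advance for CA1, AQP8, SLC26A3, CLDN8, CLDN2 and CXCL8, which were named by a rule that required it. For CA1, AQP8, SLC26A3 and GUCA2A the spread among irradiated animals is wider than among controls.

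Genes of ion transport were also lower, with 10 of 25 tested members called lower and 2 higher (median log2 change -0.70). BEST2, an anion channel that passes bicarbonate, lay at 0.55 to 1.82 in the controls and at -2.97, -1.42, -5.92 and -5.56 after irradiation. It was 42.1-fold lower (adjusted p = 8.06e-05). Its relative BEST4 was 5.96-fold lower (adjusted p = 0.0356), and the call was lost without control 2, 3 or 4 or irradiated replicate 1 or 3 (log2 change -2.58 to -1.51, adjusted p = 0.0617 to 0.131). The subunits of the epithelial sodium channel moved in opposite directions. SCNN1A, the alpha subunit, was 5.79-fold lower (adjusted p = 0.000434), with controls at 0.57 to 1.40 and irradiated samples at -2.60 to -0.67. SCNN1G, the gamma subunit, was 4.36-fold higher (adjusted p = 0.0334) from low levels, and lost its call without control 1 or 3 or irradiated replicate 2 or 4 (adjusted p = 0.0519 to 0.11). CFTR, the chloride channel of crypt secretion, was not called, at a log2 change of -0.82 (adjusted p = 0.101). With array position as a block 8 members were called lower and 2 higher, and with scanning day added 0 were called. BEST4, SCNN1G and SLC14A2 were not called in the former fit. SLC14A2, a urea transporter, was among the 15 lowest genes and 43.6-fold lower (adjusted p = 0.00982), with irradiated replicate 2 at -2.36 and the other 3 at -7.92 to -6.91.

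Junction genes changed unevenly. Of 15 tested claudins, the proteins that seal the space between epithelial cells, 2 were called higher and 4 lower. CLDN2, which forms a pore for sodium and water and is sparse in the normal colon surface, lay at -6.14, -5.69, -6.13 and -4.37 in the controls and at 2.46, 1.27, 2.78 and 1.58 after irradiation. It was well above background on 1 control array and 4 irradiated arrays. CLDN2 had the largest rise among the named genes, 195-fold higher (log2 change 7.61, SE 0.93, adjusted p = 2.95e-05). CLDN8, a sealing claudin of the distal colon, lay at 0.74 to 1.71 in the controls and at -3.84, -2.95, -4.03 and -1.64 after irradiation, and was 19.6-fold lower (adjusted p = 4.52e-05). CLDN3, CLDN4 and CLDN7, which are abundant in colonic epithelium, were 2.09-, 2.3- and 2.17-fold lower (adjusted p = 0.000783, 0.00117 and 0.00211), and CLDN1 was 2.11-fold higher (adjusted p = 0.0185). The calls of CLDN3, CLDN4 and CLDN7 were lost under scaling to the spiked-in controls. Without control 1 or irradiated replicate 1 or 3 CLDN3 fell short of the 2-fold limit (-0.99 to -0.92), and without control 1 or 2 or irradiated replicate 3 CLDN1 was not called (adjusted p = 0.0503 to 0.0729). Among other tight junction proteins 3 of 13 were called, all of them lower, among them OCLN (occludin, 2.33-fold, adjusted p = 0.000329) and TJP3 (a scaffold, 3-fold, adjusted p = 0.000662). The call of OCLN was also lost under spike-in scaling, and that of CLDN4 with position as a block. DSP, which anchors desmosomes to keratin, was 2.45-fold lower (adjusted p = 0.000412), and was the sole call among 11 genes of adherens junctions and desmosomes. EPCAM, an adhesion protein of all epithelia, changed by -0.92 (adjusted p = 0.00159), just under the 2-fold limit, from 5.49 to 6.18 in the controls to 4.40 to 5.14 after irradiation.

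Genes of fatty acid and ketone metabolism, through which colonocytes use butyrate, were lower in part, and genes of the respiratory chain were not called. Of 23 tested members of the first list 9 were called lower and 3 higher (median -0.76). Of 26 tested genes of oxidative phosphorylation, 0 were called in either direction, and 24 had a log2 change under 0 (median -0.21). SLC16A1, a transporter of butyrate and lactate, lay at 2.46, 2.51, 2.43 and 2.70 in the controls and at -0.92, 0.41, -0.66 and -0.29 after irradiation. It was 7.42-fold lower (adjusted p = 1.77e-05) and a second probe gave -3.46. PDK4, which limits the entry of pyruvate into the citric acid cycle, was 3.77-fold higher (adjusted p = 0.00035).

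Xenobiotic and sterol genes were lower in part. Of 29 genes of xenobiotic metabolism 5 were called lower and 0 higher, among them UGT2A3, which couples glucuronic acid to drugs and bile acids (5.31-fold, adjusted p = 0.0115). CYP1A1, the classical target of the aryl hydrocarbon receptor, had irradiated levels from -6.07 to 0.10 and control levels from -0.62 to 3.13, which overlapped, and was not called (adjusted p = 0.0885). Of 20 genes of sterol and lipid synthesis 3 were called lower and 0 higher. Among 24 nutrient carriers 5 were higher and 3 lower. SLC7A11, which imports cystine for glutathione, was 5.98-fold higher (adjusted p = 0.00024).

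The secretory cells of the epithelium gave mixed values. Of 20 tested goblet cell and mucin genes 3 were called higher and 4 lower. ATOH1, the factor that commits cells to the secretory lineages, was 4.49-fold lower (adjusted p = 0.000618), with controls at -2.89 to -2.04 and irradiated samples at -5.48 to -4.16. TFF3, the trefoil peptide of colonic goblet cells, was 2.62-fold lower (adjusted p = 0.00985) and fell short of the 2-fold limit without irradiated replicate 3 (-0.92), which lay at 2.71 where the others lay at 4.46 to 4.79. MUC2, the main mucin of the colon, was not called, at a log2 change of -0.50 (adjusted p = 0.281). TFF1, the trefoil peptide best known from the stomach, lay at -1.50, -0.94, -2.33 and -1.33 in the controls and at 3.41, 2.89, 2.05 and 3.19 after irradiation. It was 21.2-fold higher (adjusted p = 0.00283). RETNLB, a goblet cell protein active against bacteria, was 9.91-fold higher (adjusted p = 0.0395), with no overlap between groups, but its call was lost without any 1 of the 8 arrays (adjusted p = 0.0537 to 0.089). When position was a block, 0 goblet cell genes were called higher and 4 lower, and TFF1 and RETNLB were not called.

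Hormone genes of enteroendocrine cells split. Of 15 tested 3 were called lower and 1 higher. GIP, an incretin, was 14.1-fold lower (adjusted p = 0.000236), from -3.47 to -2.37 in the controls to -7.63 to -5.13 after irradiation, where 1 of 4 arrays was well above background. INSL5, a hormone of distal colon L cells, was 10.9-fold lower (adjusted p = 0.00381). PYY, another L cell hormone, was 3.04-fold lower (adjusted p = 0.00595), although irradiated replicate 1 at 0.36 lay within the controls. CHGA, a granule protein of all endocrine cells, was not called, with a log2 change of 0.82 (adjusted p = 0.0306) estimated from 3 controls, the value of control 1 being missing as an outlier spot. Among 12 tuft cell genes 3 were lower and 1, SUCNR1, the succinate receptor, was higher (6.66-fold, adjusted p = 0.00306). INSL5, PYY and SUCNR1 were not called with position as a block.

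Crypt stem cell genes and targets of WNT signalling gave 3 higher and 2 lower of 23 (median 0.07). ASCL2, a transcription factor of crypt stem cells, was 2.07-fold higher (adjusted p = 0.0129), from -2.21 to -1.31 in the controls to -0.90 to -0.18, and without control 2 or irradiated replicate 2 it fell short of the 2-fold limit (0.88 and 0.89). LGR5, the stem cell receptor for R-spondins, was not called, at -0.29 (adjusted p = 0.29), although a second probe gave 0.79 and was not called either. OLFM4, a stem cell marker of the human crypt, was well above background on 0 control and 2 irradiated arrays. PROM1, which encodes prominin 1 of apical membranes, was 10.2-fold lower (adjusted p = 8.79e-05), and its 3 other probes gave -3.94 to -3.85. IHH, the hedgehog signal that mature epithelium sends to the stroma, had nearly equal irradiated values, -0.45, -0.50, -0.55 and -0.53, against 0.87, 0.99, 1.40 and 1.15 in the controls, and was 3.05-fold lower (adjusted p = 6e-06). Among 31 tested WNT, R-spondin, BMP and hedgehog signals between epithelium and stroma 5 were higher and 1, IHH, lower.

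Genes of wounded and regenerating epithelium were higher. Of 20 tested, 8 were called higher and 0 lower (median 0.85). ANXA3, a membrane-binding annexin, lay at -2.08, -2.74, -3.05 and -2.71 in the controls and at 1.49, 0.64, 1.77 and 0.95 after irradiation. It was 14.5-fold higher (adjusted p = 6.02e-07), its second probe gave 3.95, and the call held in every alternative run, the blocks for position and scanning day included. ANXA1, an annexin of healing epithelium, was 3.72-fold higher (adjusted p = 0.000354) with 3 irradiated values. In a separate list of 11 tested EGF receptor ligands and receptors, 2 were called higher and 2 lower (median 0.10). The 2 higher were EREG, a ligand of the EGF receptor that supports crypt growth, and NRG1, a stromal ligand of ERBB3. EREG was 12.7-fold higher (adjusted p = 0.00294) and NRG1 5.67-fold higher (adjusted p = 0.000512). Of 13 keratins 3 were higher and 3 lower. KRT23 was 12.5-fold higher (adjusted p = 0.00361) with 1 control, replicate 2, at -5.66 and the others at -1.63 to -1.04. SERPINB5, a serpin of squamous and injured epithelium, was 29.7-fold higher (adjusted p = 0.000511), and TGM3, a transglutaminase of squamous epithelium, was at least 20.2-fold higher (adjusted p = 0.000906), since no control array was well above background. With position as a block 10 members of the wound list were called higher and 1 lower, and TGM3 was not called.

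Targets of p53 were higher. Of 30 tested, 14 were called higher and 0 lower, and 27 had a log2 change above 0 (median 0.87). GDF15, a stress hormone of the TGF-beta family, lay at 0.81, 0.44, 0.27 and 0.16 in the controls and at 5.93, 4.72, 5.85 and 4.80 after irradiation. The groups were more than 3 log2 units apart, and GDF15 was 30-fold higher (SE 0.40 on the log2 scale, adjusted p = 4.21e-07). EDA2R, a receptor of the TNF receptor family, had a mean of -1.56 (SD 0.30, n = 4) in the controls and levels of 1.07, 1.28, 1.25 and 1.32 after irradiation, 6.92-fold higher (adjusted p = 6.02e-07). The irradiated animals differed little in this gene (SD 0.11, n = 4). PLK2, a kinase of the centrosome, was 7.36-fold higher (adjusted p = 0.000451). CDKN1A, the cell cycle inhibitor p21, was 2.16-fold higher (adjusted p = 0.00199) and BAX, which opens mitochondria in apoptosis, 2.03-fold higher (adjusted p = 4.31e-05). Both lay near the 2-fold limit and fell short of it without some arrays, CDKN1A without control 3 or irradiated replicate 3 (0.96 and 0.99) and BAX, just without irradiated replicate 1. MDM2, the ligase that degrades p53, was higher by 0.55 on the log2 scale (adjusted p = 0.0144), under the 2-fold limit, while a second probe gave 1.62 and was called. With position as a block 14 p53 targets were called higher, and with scanning day added 7, GDF15, EDA2R and PLK2 among them.

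Replication genes were higher in part and mitotic genes were not called. Of 28 DNA replication genes 4 were called higher and 0 lower (median 0.50). TYMS, which makes thymidylate, was 3.19-fold higher (adjusted p = 0.000192) and GINS1, a subunit of the replicative helicase, 3.58-fold higher (adjusted p = 0.000139). Neither was called with position as a block, under which 0 members of the list were called higher and 2 lower. PCNA, the sliding clamp, changed by 0.87 (adjusted p = 0.0068). Of 23 mitotic genes 0 were called in either direction (median 0.39). CCNB1, the mitotic cyclin, changed by 0.76 (adjusted p = 0.0586) and its kinase CDK1 by 0.50 (adjusted p = 0.138). Of 37 repair and checkpoint genes 2 were called higher, near the share of 4.48% over all genes, and 0 lower (median 0.19). RAD51C, a factor of homologous recombination, was 1 of these 2 (2.61-fold, adjusted p = 0.0002).

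**Figure D3:**
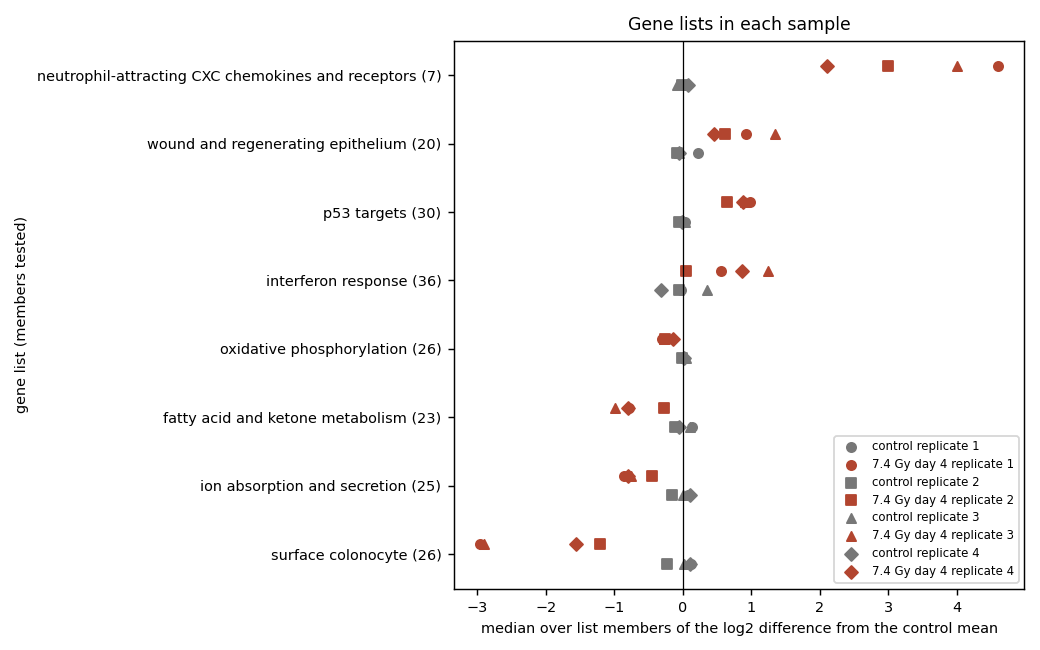
Median over the tested members of 8 gene lists of the log2 difference from the control mean, for each control (grey) and irradiated (red) sample, with 1 marker shape per replicate number. Irradiated replicate 2 lies nearest to the controls for the surface colonocyte list (-1.21, against -2.96 in replicate 1), and the 4 irradiated samples lie between 0.65 and 0.98 for p53 targets.

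The irradiated animals differed from each other more in some lists than in others. Over 1105 called genes with 4 irradiated values, replicate 2 lay nearest to the control mean for 539 genes and replicate 3 farthest for 492. The median distance was 1.62, 1.24, 1.71 and 1.31 log2 units in replicates 1 to 4. For surface colonocyte genes replicate 2 was the highest of the 4 for 18 of 26 members. For p53 targets the medians per animal were 0.98, 0.65, 0.91 and 0.88, and for neutrophil-attracting chemokines 4.61, 3.00, 4.01 and 2.10. The array of replicate 2 lay on slide 4 and had the most probes well above background (82.6%), and control 4 on that slide had the most among controls (79.9%), and their part in these differences was not tested. Within slide 3, which held 1 array of each group, 2651 of the 2679 called probes (99%) had the direction of the full comparison, and within slide 4, 2616 (97.6%), but these arrays also entered the calls. Without replicate 2 the surface colonocyte list had 21 members called lower, and without replicate 3 it had 19.

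Chemokines that attract neutrophils were higher. Of 7 tested members 5 were called higher and 0 lower (median 3.44). CXCL8, which encodes interleukin 8, lay at -5.46, -5.95, -4.77 and -7.89 in the controls and at 0.32, -0.84, 1.55 and -1.92 after irradiation. It was well above background on 1 control array and 4 irradiated arrays, 55.6-fold higher (adjusted p = 5.26e-05), and its 2 other probes gave 3.61 and 4.06. CXCL1 had nearly equal controls, -2.35, -2.39, -2.35 and -2.45, and irradiated levels of 2.99, 0.62, 2.15 and 0.69. It was 16-fold higher (adjusted p = 4.63e-05). CXCL2 and CXCL3 were 20.1- and 10.9-fold higher (adjusted p = 2.37e-05 and 2.95e-05). The same 4 genes kept their calls with position and scanning day as blocks. Of 8 tested neutrophil markers 1 was called higher and 0 lower. The summed signal of these markers, in units of the array's 75th percentile, was 1.96 to 2.4 in the controls and 1.72 to 3.31 after irradiation. CSF3R, the receptor for the granulocyte growth factor, changed by -0.42 (adjusted p = 0.0406), while a second probe gave 1.64 and was called higher.

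Other chemokines were higher in part. Of 14 other CXC genes 6 were higher and 1 lower. CXCL10 and CXCL11, which attract T cells and respond to interferon gamma, were 9.01- and 11.6-fold higher (adjusted p = 0.00314 and 0.000972). CXCL9, the third ligand of the same receptor, ranged from -2.70 to 2.13 after irradiation and from -4.89 to -0.65 in the controls and was not called (adjusted p = 0.0716). CXCL17, a mucosal chemokine, was at least 10-fold higher (adjusted p = 0.0163), but irradiated replicate 2 at -6.35 lay near the controls, and the call was lost without replicate 1 or 3 (adjusted p = 0.0668 and 0.0593). Of 24 CC chemokines and receptors 5 were higher and 2 lower. CCL20, which draws dendritic cells and lymphocytes to epithelium, was 11.5-fold higher, CCL2, which draws monocytes, 5.3-fold, and CCL19, which draws T cells to lymphoid tissue, 5.68-fold (adjusted p = 0.00064, 0.000329 and 0.00562). CCL23 was 31.6-fold higher (adjusted p = 0.00165), while a second, dimmer probe gave -0.19 and was not called. CCL18, a chemokine of alternatively activated macrophages, was 2.89-fold lower (adjusted p = 0.0337), and the call was lost without any control or irradiated replicate 1, 3 or 4 (adjusted p = 0.0519 to 0.102). The calls of CXCL10, CXCL11, CXCL17, CCL18, CCL19, CCL20 and CCL23 were lost with position as a block, under which 2 of the other CXC genes and 2 of the CC genes were called higher.

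Some cytokine genes of the interleukin 1 and TNF families were higher, and most were not called. Of 18 tested interleukin 1 family genes 4 were higher and 0 lower (median 0.72). IL1A, the alarmin form released from damaged epithelium, lay at -6.12 to -4.55 in the controls and at 1.44, -2.03, 0.83 and -1.32 after irradiation, 33.9-fold higher (adjusted p = 0.000156). IL1B was 4.75-fold higher (adjusted p = 0.0199), with irradiated replicate 4 at -4.58 among the controls, and was not called without control 1 or irradiated replicate 1 or 3 (adjusted p = 0.0576 to 0.0744). IL1RN, the natural antagonist, was not called (adjusted p = 0.1). TNF, the cytokine at the head of its family, lay at -1.92 to -0.54 in the controls and at 0.24, -0.20, 0.58 and -0.91 after irradiation, so that 1 irradiated value lay within the controls. It was 2.29-fold higher (adjusted p = 0.0303), and the call was lost without control 1 or 2 or irradiated replicate 1 or 3 (adjusted p = 0.0774 to 0.0974). TNFSF11, the ligand RANKL, was 3.91-fold higher (adjusted p = 0.0205) with overlapping groups, and was not called without control 1 or irradiated replicate 1, 3 or 4 (adjusted p = 0.0566 to 0.0785). Of 29 TNF ligands and receptors 5 were higher and 0 lower, and 16 had a log2 change under 0 (median -0.03). TNF and TNFSF11 were not called with position as a block.

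IL6, which encodes interleukin 6, was not called, with control levels of -4.89 to -1.56 and irradiated levels of -4.46 to -2.40 (log2 change 0.02, 95% interval -1.19 to 1.22). Its relatives OSM and CLCF1 were higher, OSM at least 2.61-fold (adjusted p = 0.0117) and CLCF1 4.22-fold (adjusted p = 0.00226). SOCS3, a target of the shared STAT3 pathway, was not called (-0.31, adjusted p = 0.12). Of 36 NF-kB and early response genes 7 were higher and 0 lower. TNFAIP3, which ends NF-kB signals, was 2.46-fold higher (adjusted p = 3.4e-05) and NFKBIA, the inhibitor that NF-kB itself induces, changed by 0.60 (adjusted p = 0.0553). SOD2, the superoxide dismutase of mitochondria, was 3.09-fold higher (adjusted p = 0.0043), and the early response factors EGR1 and EGR2 were 4.31- and 4.74-fold higher (adjusted p = 0.0278 and 0.0116). SOD2 was not called with position as a block. The call of EGR1 was lost without control 2, 3 or 4 or irradiated replicate 1 or 3 (adjusted p = 0.0579 to 0.0914).

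Interferon response genes gave 5 higher and 1 lower of 36 (median 0.69). IDO1, which degrades tryptophan, was 6.13-fold higher (adjusted p = 0.0191), with irradiated levels from 0.96 to 5.02, and was not called without irradiated replicate 3 (adjusted p = 0.0757). GBP1, a GTPase induced by interferon gamma, was 4.52-fold higher with overlapping groups (adjusted p = 0.00859) and RSAD2, the antiviral protein viperin, 4.92-fold lower (adjusted p = 0.00336). With position as a block the median of this list was 0.06, and 2 members were called higher, without IDO1 and GBP1, and RSAD2 was not called lower.

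Antimicrobial and oxidant genes of the epithelium were higher. Of 24 tested antimicrobial genes 8 were called higher and 0 lower, and of 31 oxidant and antioxidant genes 10 and 0. PI3, the elastase inhibitor elafin, lay at 0.13, -0.16, 0.43 and 0.57 in the controls and at 3.95, 3.57, 4.01 and 4.16 after irradiation, 12.8-fold higher (adjusted p = 0.000783). CHI3L1, a chitinase-like protein of inflamed epithelium, was 17.9-fold higher (adjusted p = 9.28e-05). SAA1, an acute-phase protein, was at least 23-fold higher (adjusted p = 0.00289), with irradiated levels of 1.09, -4.44, 0.53 and -1.60 and no control array well above background. LCN2, which binds bacterial siderophores, was 3.5-fold higher (adjusted p = 0.00645), and a dimmer probe gave 5.68. S100A8 and S100A9, the subunits of calprotectin, were 12.2- and 4.69-fold higher (adjusted p = 0.0279 and 0.0176), and lost both calls without irradiated replicate 3 (adjusted p = 0.104 and 0.0649), which held their highest levels, 1.47 and 2.87. S100A8 was not called without control 3 either (adjusted p = 0.0749). DEFA6, an alpha-defensin of Paneth cells, was 44.3-fold higher (adjusted p = 0.0173), lost its call without irradiated replicate 1 (adjusted p = 0.0544), and had a log2 change of -0.50 with position as a block.

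NOS2, the inducible nitric oxide synthase, lay at -1.78 to -0.21 in the controls and at 4.90, 2.21, 4.62 and 3.11 after irradiation, 23.8-fold higher (adjusted p = 0.00178). DUOX2, the hydrogen peroxide source of the surface, was 3.49-fold higher (adjusted p = 0.0365), with overlapping groups, and was not called without control 1 or 2 or irradiated replicate 1 or 3 (adjusted p = 0.0717 to 0.136). Its maturation factor DUOXA2 was at least 12.1-fold higher (adjusted p = 0.0137), but a second probe gave -0.05, and the call was lost without irradiated replicate 1 (adjusted p = 0.0555). GPX2, the glutathione peroxidase of gut epithelium, lay at 3.52, 3.69, 4.00 and 4.04 in the controls and at 6.35, 5.58, 6.26 and 6.12 after irradiation, 4.8-fold higher (adjusted p = 0.00019). In prostaglandin metabolism PTGS2, the inducible cyclooxygenase, was 3.29-fold higher (adjusted p = 0.0147) and HPGD, which breaks prostaglandins down, 4.76-fold lower (adjusted p = 0.00285). PTGS2 was not called without control 4 or irradiated replicate 3 (adjusted p = 0.0535 and 0.0521). With position as a block 1 antimicrobial gene was called higher and 2 lower, and 3 oxidant genes were called higher. SAA1, PI3, CHI3L1, LCN2, S100A8, S100A9, NOS2, DUOX2, DUOXA2 and HPGD were not called in that fit.

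Matrix, coagulation and complement genes were higher in part. Of 22 matrix metalloproteinases and inhibitors 5 were called higher and 2 lower. MMP7, the matrilysin of injured epithelium, was at least 12.1-fold higher (adjusted p = 0.000685), with irradiated levels of -0.55, -2.49, -0.31 and -4.78. MMP2, a gelatinase of stromal cells, was 2.9-fold higher (adjusted p = 2.56e-05) and MMP9, a gelatinase of leukocytes, 2.85-fold higher with overlapping groups (adjusted p = 0.00285). TIMP1, which inhibits these enzymes, was 3.86-fold higher (adjusted p = 0.00166). Of 24 collagen and fibroblast matrix genes 6 were higher and 0 lower (median 0.73). COL1A2, a chain of type I collagen, was 3.44-fold higher (adjusted p = 0.0039), while a second probe gave 0.18. GREM1, which blocks BMPs beneath the crypts, lay at 2.13, 1.37, 1.33 and 0.72 in the controls and at 4.32, 3.40, 4.00 and 2.95 after irradiation, 4.86-fold higher (adjusted p = 0.000102). BMP7 was 4.03-fold higher (adjusted p = 0.000521). MMP9 and COL1A2 were not called with position as a block.

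Of 26 coagulation and fibrinolysis genes 9 were higher and 1 lower (median 1.01). TFPI2, an inhibitor of tissue factor and plasmin, was at least 5.56-fold higher (adjusted p = 0.0303), and lost its call without control 2 or 3 or irradiated replicate 1 or 3 (adjusted p = 0.0612 to 0.11). SERPINA3, an acute-phase antiprotease, was 8.65-fold higher with overlapping groups (adjusted p = 0.00473). VWF, the platelet-binding protein of endothelium, was 2.35-fold higher (adjusted p = 0.000482) with 3 irradiated values. Of 20 complement genes 7 were higher and 0 lower. CFB, of the alternative pathway, was 8.11-fold higher (adjusted p = 0.000982) and CD55, which shields cells from complement, 4.6-fold higher (adjusted p = 0.0051). Among 24 genes of the unfolded protein response 3 were higher and 1 lower, with CHAC1, which degrades glutathione, 4.35-fold higher (adjusted p = 2.56e-05). With position as a block 14 coagulation and 7 complement genes were called higher, and with scanning day added 2 of each. VWF, CFB and CD55 were not called with position as a block.

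**Figure D4:**
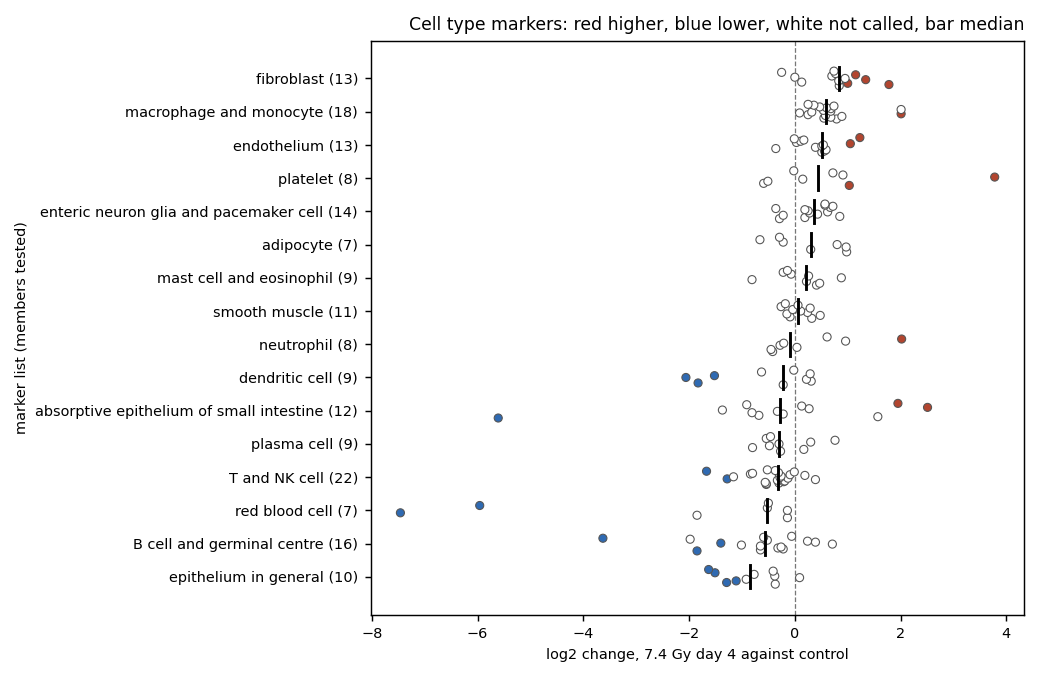
Log2 change of every tested member of 16 lists of cell type markers on day 4 after 7.4 Gy against control (red called higher, blue called lower, white not called), with the median of each list as a bar and the number of members in brackets. General epithelial markers have the lowest median, -0.84, and fibroblast markers the highest, 0.83.

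General epithelial markers were lower in part and fibroblast markers higher in part. Among 10 general epithelial markers 4 were called lower, 0 higher and 6 not called (median -0.84). The summed signal of the 10, in units of the array's 75th percentile, was 764 to 998 in the controls and 399 to 482 after irradiation. Bright members weigh most in this sum, and the brightest, LGALS4 (log2 change -1.51), was among those called lower. Among 13 fibroblast markers 4 were higher and 0 lower, with a summed signal of 128 to 297 in the controls and 265 to 382 after irradiation, which overlapped. Among 13 endothelial markers 2 were higher, and among 18 macrophage and monocyte markers 1. The 8 platelet markers gave 2 higher, led by PF4, a platelet chemokine (13.7-fold, adjusted p = 0.00333), which was not called with position as a block. Of 11 smooth muscle, 14 enteric nerve and pacemaker, 7 adipocyte, 9 plasma cell and 9 mast cell and eosinophil markers 0 were called in either direction. ACTA2, the smooth muscle actin, changed by 0.32 (adjusted p = 0.358), and with position as a block 5 smooth muscle and 4 enteric markers were called higher. The part of a changed mix of cell types in the results above was not tested.

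Lymphocyte and dendritic cell genes were lower where they were called, but most were not called. Over all genes 4.18% were called lower. Of 22 T and NK cell markers 2 were lower and 20 were not called, and 20 had a log2 change under 0 (median -0.32). The brightest of the 22 was TBX21. TBX21, the transcription factor of type 1 lymphocytes, lay at 5.17 to 6.31 in the controls and at 3.61 to 4.22 after irradiation, 3.18-fold lower (adjusted p = 0.000656), while CD3E, a chain of the T cell receptor complex, was not called (-0.56, adjusted p = 0.251). Of 16 B cell and germinal centre markers 3 were lower and 0 higher. RGS13, a regulator of G protein signals in germinal centre B cells, lay at -1.72, -3.88, -1.60 and -0.36 in the controls and at -5.02, -6.22, -5.72 and -5.12 after irradiation, 12.4-fold lower (adjusted p = 0.00401). MS4A1, which encodes CD20, was well above background on 2 control and 0 irradiated arrays and was not called (adjusted p = 0.0855). Of 9 dendritic cell markers 3 were lower. CLEC9A, of cross-presenting dendritic cells, was 4.16-fold lower (adjusted p = 0.0357) and CD1C at least 1.45-fold lower (adjusted p = 0.00961). TBX21, RGS13, CLEC9A and CD1C all lost their calls with position as a block. CLEC9A was not called without control 2, 3 or 4 or irradiated replicate 2, 3 or 4 either (adjusted p = 0.0708 to 0.0893).

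HBB, the beta chain of haemoglobin, lay at 2.44, 2.17, 3.25 and 3.38 in the controls and at -2.04, -2.86, -4.52 and -3.17 after irradiation, 62.1-fold lower (adjusted p = 1.1e-05). The brightest probe of HBA2, an alpha chain, changed by -0.52 (adjusted p = 0.0285), and its second probe by -4.17. Of 7 red blood cell markers 2 were lower, HBB and CA1, which surface colonocytes also express.

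Several genes at the extremes of the comparison belonged to no list. LCN15, a lipocalin, was 76.1-fold higher and GPR110, an adhesion receptor, 66.9-fold (adjusted p = 2.56e-05 and 2.64e-05). LCN15 was well above background on 1 control array and GPR110 on 2, and each on 4 irradiated arrays. TCN1, which binds vitamin B12, was 43.6-fold higher and VNN2, of the vanin family, 34.2-fold (adjusted p = 0.00248 and 0.000148). ANKRD65, a protein with ankyrin repeats, was at least 22.1-fold higher (adjusted p = 5.24e-08), and its call held with both blocks. TCN1 and VNN2 were not called with position as a block, nor LCN15 and GPR110 with scanning day added. NXPE1 had almost equal controls, -0.44, -0.47, -0.27 and -0.58, and irradiated levels of -5.46, -3.48, -6.20 and -4.38. It was 21.7-fold lower (adjusted p = 4.92e-06).

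The dose comparison asked whether 7.4 Gy differed from 6.7 Gy on day 4. Of 35604 probes 0 were called by limma, and 355 passed an unadjusted p under 0.05 with a 2-fold change. The methods' t-test without adjustment gave 160 probes and with adjustment 0. The median 95% interval of the difference for the 138 named genes reached 1.07 log2 units to either side. For NXPE1 the mean was -2.43 after 6.7 Gy and -4.88 after 7.4 Gy, a difference of -2.44 (95% interval -3.37 to -1.52, adjusted p = 0.103), and for CLDN8 -0.83 and -3.12 (difference -2.29, interval -3.44 to -1.14). GDF15 lay at a mean of 5.08 after 6.7 Gy and 5.33 after 7.4 Gy (difference 0.25, interval -0.59 to 1.09), and BAX at 2.50 and 2.53 (interval -0.24 to 0.30). The intervals of 23 of the 138 genes excluded 0 before adjustment. Many of these genes were named for their change against control, in which the same 7.4 Gy arrays entered. The share over all genes was not computed, so this count is not read as a dose effect. With array position as a block 129 probes were called, with scanning day added 1, and with only the arrays in position 2 fitted 0. The part of scanning day in the 129 was not tested. Of the 30 p53 targets, the median difference between doses was 0.17, and of the 26 surface colonocyte genes -0.50.

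The time comparison asked what differed between day 7 and day 4 after 7.4 Gy, in other animals. It shared the 4 day 4 arrays with the comparison against control. Of 35604 probes 2066 were called (5.8%), 1090 higher on day 7 (3.06%) and 976 lower (2.74%), and of 12861 genes 860 (6.69%), 442 higher (3.44%) and 418 lower (3.25%). Among surface colonocyte genes 17 of 26 were higher on day 7 and 0 lower (median 1.59). Among ion transport genes 8 of 25 were higher, and among fatty acid and ketone genes 9 of 23 were higher and 2 lower. Among p53 targets 8 of 30 were lower on day 7 and 0 higher, and among neutrophil-attracting chemokines 4 of 7 were lower and 0 higher. Among coagulation genes 5 of 26 were lower, and among T and NK cell markers 3 of 22 were lower and 0 higher. Mitotic and oxidative phosphorylation genes gave 0 calls.

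Among the genes highest on day 7 relative to day 4 were CHP2, NXPE1, GIP and CLDN8. CHP2 differed by 4.98 (adjusted p = 0.000696), and its mean was 2.96 in the controls, -3.48 on day 4 and 1.50 on day 7. NXPE1 had means of -0.44, -4.88 and -0.48 in the same order, CLDN8 of 1.18, -3.12 and 1.17, and GIP of -2.85, -6.66 and -2.31, with adjusted p of 2.27e-05, 0.000125 and 0.000163 between the days. Among named genes called without overlap between the days, the lowest on day 7 relative to day 4 were CLDN2, SERPINB5, LCN15, OSM and GDF15. MMP7 (-3.87) and TGM3 (-3.60) were also called lower on day 7, with overlapping values. CLDN2 had means of -5.58, 2.02 and -2.69, and GDF15 of 0.42, 5.33 and 2.22 (adjusted p = 0.00246 and 0.000127 between the days). HBB, with means of 2.81, -3.15 and -5.57, was lower again on day 7 (-2.42, adjusted p = 0.015). PDK4 was not called between the days, with means of -0.55, 1.36 and 0.95. Array position could not be separated from day in this comparison, since the day 7 arrays lay in positions 3 and 4.

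**Figure D5:**
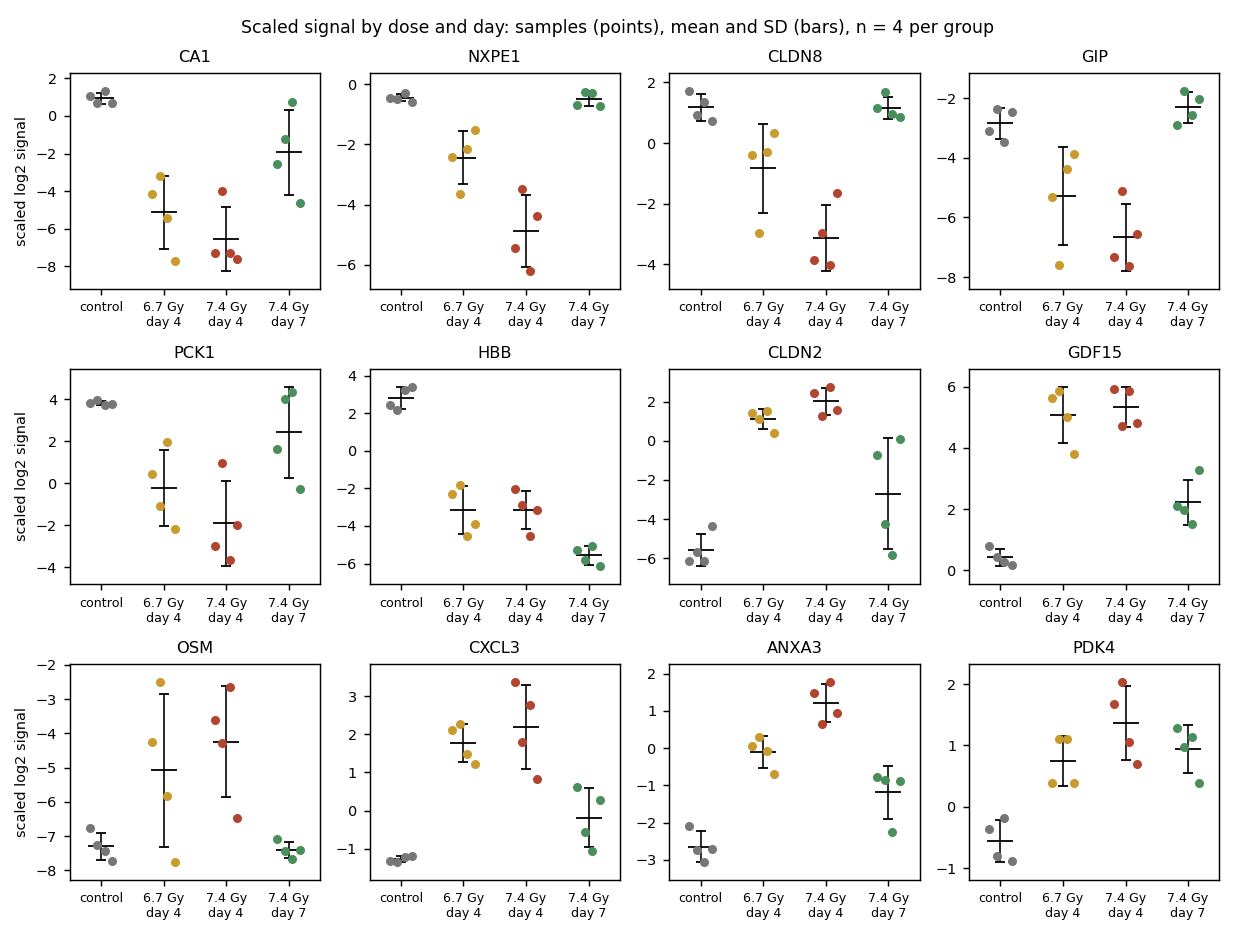
Scaled log2 signal of 12 genes in control, 6.7 Gy day 4, 7.4 Gy day 4 and 7.4 Gy day 7 samples (4 points per group, with mean and SD as bars). On day 7 the NXPE1 and CLDN8 means (-0.48 and 1.17) lie beside the control means (-0.44 and 1.18), while HBB lies lower than on day 4.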

How the data were processed

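Total RNA from the colon of each animal was labelled with Cy3 and hybridised to a 1-colour Agilent rhesus array. The authors deposited scanner output of Agilent Feature Extraction 11.0.1.1, from which the processed signal, an intensity already corrected for background, was used. The authors also deposited a table of normalized log2 values, which served as an alternative. From the intensity, log2 values minus the 75th percentile of each array over transcript probes were computed, with outlier spots missing and spots of 1 probe averaged. Of 43603 probes, 35604 were tested, those which exceeded background clearly on 2 or more of the 8 arrays, with limma 3.58.1 in R 4.3.3 (lmFit and eBayes over all groups, Benjamini-Hochberg adjustment). A call needed an adjusted p under 0.05 and a 2-fold change. The number of arrays limits the precision.

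Gene names came from the files for 18640 probes and from RefSeq symbols for 3268, and each gene was represented by its probe with the highest mean. Where a group had no array well above background, the fold is a lower bound against the lowest signals well above background. Named genes were the 15 highest and 15 lowest called genes without overlap, and members of 59 lists. From each list came the marked members and the 3 highest and 3 lowest called members. The 5 highest and 5 lowest called genes without overlap between days were also named. Some genes that met this rule are not reported here. The members and lists were chosen with earlier results of these data known. Replicates were separate animals. Alternatives changed the background correction, scaling, filters, thresholds, blocks (slide, position, scanning day, replicate number) and test, and left out each array. A fit on the arrays of scanning day 2 and values within slides 3 and 4 were added after seeing the data. The analysis was tested on simulated data.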

Additional observations from a re-analysis of the deposited data

Results flagged for a closer look

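Some single animals lay far from the other 3 of their group. Among irradiated samples, replicate 2 stood apart for GPR110 (-0.46, nearest 0.65), CA1 (-4.00, nearest -7.27) and TNFSF11 (-4.87, nearest -2.66), and replicate 3 for TFF3 (2.71, nearest 4.46) and IL1RN (-4.10, nearest -6.00), all in scaled log2 levels. Among controls, replicate 1 stood apart for EGR1 (-3.48), RSAD2 (-0.30), TIMP1 (3.98) and CD3E (-0.35), replicate 2 for BEST2 (0.55) and KRT23 (-5.66), and replicate 4 for MUC2 (4.11) and CFB (-5.38). Chance sets about 1 in 20 groups apart in this way, and over all genes the share was 6.04% of control groups and 5.4% of irradiated groups.

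For 68 named genes the level after 7.4 Gy differed between day 7 and day 4 in limma's test of the difference itself. Each value below is the log2 change from day 4 to day 7. Higher on day 7 were CA1 4.60, CHP2 4.98, PCK1 4.33, BEST2 3.39, TMIGD1 3.52, GUCA2B 2.87, NXPE1 4.40, AQP8 2.91 and SLC26A3 3.71. Also higher on day 7 were CLDN8 4.28, PDZD3 3.01, CA2 2.06, GUCA2A 2.64, SCNN1A 1.36, CLDN7 1.25, TJP3 1.64, DSP 1.24 and SLC16A1 2.0. Also higher on day 7 were UGT2A3 2.02, TFF3 1.25, ATOH1 1.75, MUC2 1.11, INSL5 2.74, GIP 4.35, PROM1 2.91, HPGD 1.41 and IHH 1.42. Lower on day 7 were CLDN2 -4.72, LCN15 -3.32, GPR110 -2.48, CXCL8 -2.45, TGM3 -3.60, ANKRD65 -1.79, MMP7 -3.87, VNN2 -2.87, HBB -2.42, SLC7A11 -1.40 and SUCNR1 -1.99. Also lower on day 7 were ASCL2 -1.22, ANXA1 -1.95, ANXA3 -2.40, EREG -2.38, NRG1 -1.38, GDF15 -3.11, EDA2R -1.05, PLK2 -1.61, RAD51C -1.04, TNF -1.14 and TNFAIP3 -1.26. Also lower on day 7 were EGR1 -2.03, EGR2 -2.09, CXCL1 -1.95, CXCL2 -1.57, CXCL3 -2.37, CCL2 -1.66, CCL19 -2.04, OSM -3.16, CLCF1 -1.27, CHI3L1 -2.50 and GPX2 -1.23. Also lower on day 7 were PTGS2 -1.75, TIMP1 -1.27, GREM1 -1.67, SERPINA3 -2.32, CHAC1 -1.89, CLEC9A -2.71, VWF -1.03 and SERPINB5 -4.68. The controls did not enter these differences, and array position could not be separated from day.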

How the results depend on the processing

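The count against control was within 1.5 times of 2679 under most alternatives. Normexp background correction gave 1435 probes (662 higher, 773 lower), no minimum fold 8032 (3390 and 4642), an adjusted p under 0.01 856 higher, the methods' t-test with adjustment 1696 (821 and 875), spike-in scaling 2699 higher and 753 lower, and position with scanning day as blocks 669 (380 and 289). With position alone as a block 60.9% of calls were higher. Between doses, where 0 were called, normexp gave 2 (2 higher), quantile normalization 1 (lower), probes well above background on all 4 arrays of a group 2 (1 higher, 1 lower), the unadjusted t-test 160 (107 and 53), position 129 (106 and 23), and position with scanning day 1 (lower). Between days, normexp gave 999 (576 and 423), no minimum fold 6324 (3585 and 2739), an adjusted p under 0.01 1178 (433 lower), the adjusted t-test 651 (389 and 262), and scanning day as a block 606 lower. The cause of these shifts was not tested. Leaving out 1 array gave 2195 to 3004 probes against control (997 to 1349 higher, 1071 to 1655 lower), 0 to 23 between doses (0 to 8 and 0 to 15), and 1460 to 2277 between days (816 to 1311 and 640 to 1042). The fewest against control, 2195, came without irradiated replicate 3.

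Samples with the same replicate number did not deviate together (correlations -0.0701, -0.0911, -0.0453 and -0.0436), so they shared only a number. With the replicate number as a block 2659 probes were called against control, 1 (lower) between doses, and 0 of 117 called genes named here lost the call.

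Some log2 changes turned sign. IL6, at 0.02, was -0.15 with normexp, -0.16 with slide and -0.0279 with scanning day as a block, and ranged from -0.45 to 0.66 on leaving out 1 array, below 0 without control 2 or 3 or irradiated replicate 1 (-0.06) or 3. With position as a block DEFA6 was -0.50 and LGR5 0.45. With position and scanning day they were -0.97 and 0.29, CCNB1 -0.0943, CDK1 -0.26, TNF -0.0307, DUOX2 -0.47 and CSF3R 0.14. Of the 117 called genes, 53 lost the call with position as a block and 1 more, DEFA6, turned sign, and with both blocks 92 lost it and 3 more, DEFA6, TNF and DUOX2, turned sign, in which position was estimated through the 6.7 Gy arrays.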
